A study of Mus musculus with 24 samples.

Results

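Alternative 5′ splice site events are places where one exon can end at either of a pair of donor sites before the transcript is joined to the same next exon. Of 8935 splicing events with values in brain libraries of 9-day-old mice, all 903 that the deposited tables class as this type are described here, chosen by that class alone and not by any measured value. The study set Celf6 knockout (KO) brains beside wild-type (WT) brains. RNA came from tissue just behind the thalamus after the cortices were removed, either as total RNA (called input) or by translating ribosome affinity purification (TRAP), which pulls down ribosome-bound RNA from cells that carry a tagged ribosome. The tag came from an allele directed to serotonin cells; its promoter, the mouse strain and the part of Celf6 that the knockout removes are not given in the sources used here. The groups with splicing values were KO TRAP (5 libraries), WT TRAP (5), KO input (5) and WT input (4 libraries), 19 in all, each labelled postnatal day 9. WT input 2 and WT input 3 differed by no more than repeat runs of one library do and were counted as 1, which left WT input at 3 and the total at 18. The WT input library that the labels call an outlier, and repeat runs of replicate 3, were not used. The study used 5 brains of each genotype, but the labels do not say that a TRAP library and an input library of one number come from one brain, and p-values measure the spread between these libraries.

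A 5′ splice site marks where an intron begins and nearly always opens with the bases GT. It is first recognised by base pairing with the U1 small nuclear ribonucleoprotein, and proteins bound nearby (SR proteins, hnRNPs, and in neurons the CELF, NOVA, RBFOX and ELAVL families) shift the choice between competing sites. Using the upstream site gives a shorter exon and using the downstream site a longer one. Where the stretch between the sites is a multiple of 3 bases in coding sequence the reading frame is kept, and otherwise it shifts. CELF6 belongs to the CELF proteins, which bind RNA and act in splicing and RNA stability.

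Sequence around a site could be read where the site falls in a RefSeq promoter window (GRCm38.p6, the same assembly as mm10). This covered 37 distinct sites in 31 of the 903 events, and 36 of the 37 intron starts read GT. The exception was the upstream site of a Rab3a event whose sites lie 1 base apart. The sites below are shown because the results return to Rpl38 and Mfn2, and because Rpl35a and Rab3a let both competitors be read. Each is written 5′ to 3′ with the first 2 intron bases in capitals.
Rpl38 upstream site, chr11:114668600-114668629, plus strand: tctcatcgctGTgagtgtgctgggcaggtg
Mfn2 upstream site, chr4:147904638-147904667, minus strand: gaaggtgaagGTgagagggcgagcgcgccg
Rpl35a upstream site, chr16:33056501-33056530, plus strand: gcctgtggagGTgaggggggttcctgctgc
Rpl35a downstream site, chr16:33056553-33056561, plus strand: gggGTgcgt
Rab3a upstream site, chr8:70754854-70754883, plus strand: cttagagaggGTaagggtgagcgcaaccca
Rab3a downstream site, chr8:70754860-70754889, plus strand: gagggtaaggGTgagcgcaacccaggtcca
The commonest base at each of 9 positions across the 37 sites gave aagGTgagg, with G in 31 of 37 sites at the last exon base and at the fifth intron base. In Rpl35a, which encodes a ribosomal protein, the upstream site shares 8 of these 9 bases and the downstream site 5, and PSI in its 8 libraries ran from 0.174 to 0.336. In Rab3a, a small GTPase of synaptic vesicles, the sites lie 6 bases apart, each share 7 of the 9 bases, and PSI in its 5 libraries ran from 0.0433 to 0.103. The sites of both genes are among the 37 that gave the 9 bases, and a link between match and PSI was not tested.

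PSI, percent spliced in, is written here as a fraction between 0 and 1. The tables do not say which site a PSI of 1 stands for, so this was read from the gene annotation printed in the count files. Where that annotation holds only the downstream site (408 events) the median PSI was 0.934, and where it holds only the upstream site (316 events) the median was 0.0507. On the plus strand these medians were 0.934 and 0.0523 and on the minus strand 0.935 and 0.0492, so a PSI near 1 is taken as use of the downstream site and the longer exon. The annotated site was not always the one used: of the 408 events with only the downstream site annotated, 109 had a median PSI below 0.1. Both sites are annotated in 65 events (median PSI 0.113) and neither in 114.

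**Figure D1:**
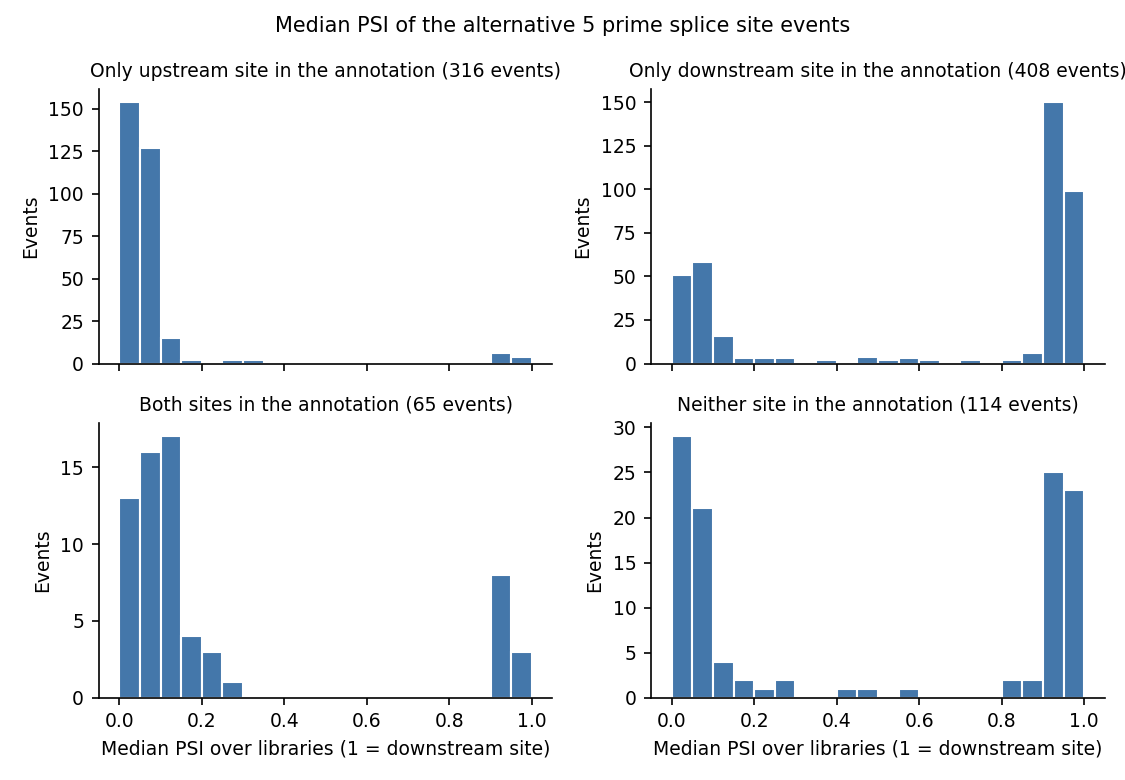
Histograms of each event's median PSI over libraries (x axis, fraction; 1 is the downstream site) with the number of events on the y axis, split by which of the sites the gene annotation holds. Events with only the upstream site annotated pile up near 0 (281 of 316 below 0.1), and those with only the downstream site pile up near 1 with a second pile near 0 (249 of 408 above 0.9 and 109 below 0.1).

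Most of these events used one site nearly alone. Over all 903 events the median PSI lay below 0.1 in 469, above 0.9 in 318 and between these bounds in 116 (12.8%). Coverage was thin: 311 events had a value in 1 library only, 190 in at least 10, and 48 in all 19. WT input 2 and WT input 3 count separately in these and later numbers of libraries per event, but as 1 wherever groups are compared. Among the 190 better measured events 29 (15.3%) had an intermediate median of 0.1 to 0.9, against 38.8% of 116 mutually exclusive exons, 16.9% of 248 alternative 3′ splice site events, 9.21% of 923 skipped exons and 6.75% of 622 retained introns with as many libraries. The authors kept a PSI only where its credible interval was at most 0.2 wide, a rule that is met with fewer reads near 0 or 1 than in the middle. Events in all 19 libraries came from genes with a median of 172 CPM (gene counts scaled to the library total), against 47.1 for events in 1 to 3 libraries.

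The sites lay a median of 113 bases apart (quartiles 45.5 and 273.5, range 1 to 3854), on exons with a median length of 116 bases to the upstream site. The commonest distance was 4 bases, in 28 events, followed by 60 bases in 14 and 9 bases in 13. Sites 4 bases apart are a known class of tandem donors, and here 10 of the 28 had a median PSI below 0.1, 13 above 0.9 and 5 between. Psme1, Ubl5 and Rps28 are examples with different balances: over their libraries the median PSI was 0.0677 in Psme1, which encodes a proteasome activator subunit, 0.107 in Ubl5, a ubiquitin-like protein, and 0.751 in the ribosomal protein gene Rps28. The distance was a multiple of 3 in 364 of 903 events (40.3%). Among events with at least 10 libraries, an intermediate median was found in 13 of 74 with such a distance (17.6%) and in 16 of 116 without (13.8%).

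**Figure D2:**
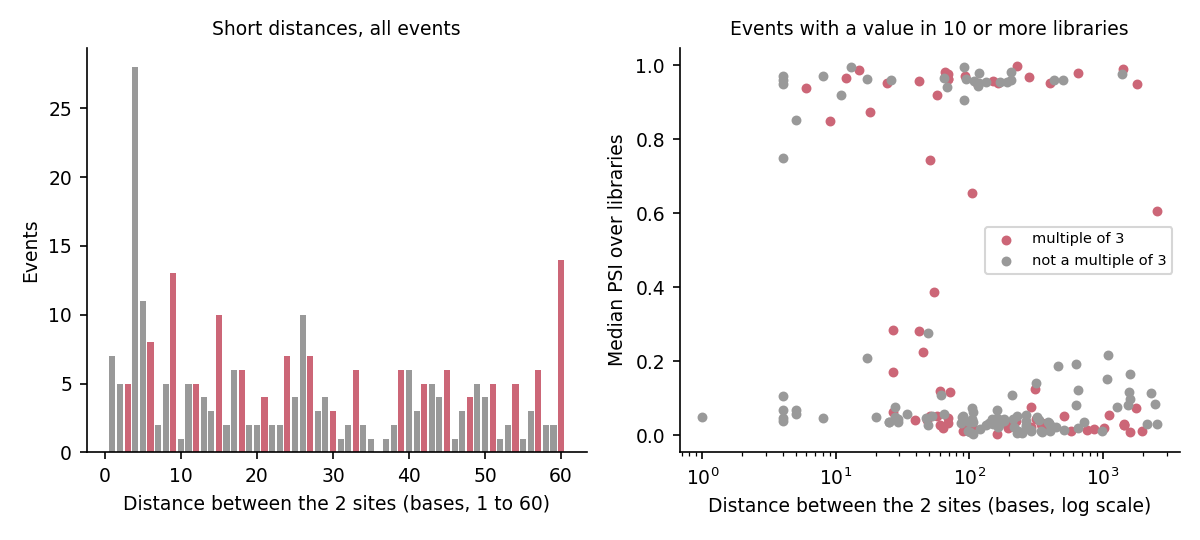
Left, number of events (y axis) at each distance from 1 to 60 bases between the sites (x axis), with multiples of 3 in red. Right, median PSI (y axis, fraction) against distance (x axis, bases, log scale) for the 190 events measured in 10 or more libraries. The tallest bar is 4 bases with 28 events, and most points on the right lie near 0 or 1 (115 events below 0.1 and 46 above 0.9).

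Libraries gave between 183 and 365 of the events each, from 3390423 to 6861963 counted reads. Over the 48 events measured everywhere, a library's median PSI ran from 0.0319 to 0.0744. Mean absolute differences in PSI over those 48 events had a median of 0.0279 for 33 pairs of libraries within a group, 0.026 for 40 KO and WT pairs of one RNA kind and 0.0286 for 80 pairs of TRAP and input. The ranges of these 3 kinds of pair overlapped. All 7 serotonergic marker genes were higher in TRAP, with a summed level of 3953 to 9996 CPM against 153 to 261 in input. Celf6 itself averaged 51.2 ± 37.7 CPM in KO TRAP and 141 ± 40.9 in WT TRAP (SD, n = 5 each), and 15.2 ± 6.41 in KO input (SD, n = 5) and 50.5 ± 46.2 in WT input (SD, n = 3). The groups overlapped in both kinds of RNA: the library labelled KO TRAP 1 stood at 114 against 84.8 in WT TRAP 5, and WT input 2/3 stood at 15.5, within the KO input range of 4.78 to 22.2. The counts cover the whole gene, so they do not check the deleted part.

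Events that drew on both sites are described first. In Nnat, an imprinted gene for a small membrane proteolipid of the developing brain, 3 donor sites compete within one exon (mm10 chr2:157561239, 157561288 and 157561293), giving exons of 27, 76 and 81 bases. For the outer pair, 54 bases or 18 codons apart, PSI was 0.702, 0.156, 0.322, 0.0851 and 0.317 in KO TRAP 1 to 5 and 0.473, 0.215, 0.188, 0.747 and 0.388 in WT TRAP 1 to 5. In KO input 1 to 5 it was 0.35, 0.507, 0.938, 0.355 and 0.592, and in WT input 1, 2/3 and 5 it was 0.487, 0.383 and 0.407. Libraries of one group spread widely in both TRAP groups and in KO input, the WT input values lay close together, and all 4 groups overlapped. The TRAP mean was 0.359 ± 0.224 (SD, n = 10) and the input mean 0.502 ± 0.195 (SD, n = 8), a difference smaller than the SD of either (2-sided exact permutation p = 0.177, adjusted p = 0.599 over 36 such tests).

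The pair 49 bases apart shares its upstream site with the outer pair, and its lowest and highest values fell in the same libraries, 0.0703 in KO TRAP 4 and 0.691 in KO input 3. The inner pair, 5 bases apart, favoured the last site, with a median PSI of 0.852 in 15 libraries. These 3 events share reads and are not independent. Nnat is marked in the authors' deposited table as a target of CELF6 crosslinking and immunoprecipitation (CLIP, which maps where a protein touches RNA).

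Ptprz1, chosen after its values were seen, encodes a receptor tyrosine phosphatase of glia and their progenitors. Its donor sites lie 2547 bases, or 849 codons, apart (mm10 chr6:23000199 and 23002746) and separate the long from the short receptor form. PSI was 0.979, 0.268, 0.52, 0.912 and 0.317 in KO TRAP and 0.955, 0.311, 0.953 and 0.286 in the 4 WT TRAP libraries with a value. KO input gave 0.558, 0.825, 0.546 and 0.487, and WT input 0.606, 0.938 and 0.96. TRAP libraries of both genotypes lay near either end with KO TRAP 3 between them (SD 0.33, n = 9), and input values lay nearer each other (SD 0.199, n = 7). Summed astrocyte markers stood at 68.1 to 383 CPM in TRAP and 331 to 490 in input. Summed oligodendrocyte markers stood at 1268 to 3985 CPM in KO TRAP, 873 to 4675 in WT TRAP, 4461 to 7981 in KO input and 4356 to 11030 in WT input. The part of either in the Ptprz1 values was not tested, and in such bulk samples fewer cells of a type and less RNA per cell cannot be told apart. The KO minus WT difference was -2.36 ± 1.10 on the log2 odds scale in input (SE; limma adjusted p = 0.978) and -0.27 ± 1.94 in TRAP (adjusted p = 1), and neither passed the test.

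Dos (also known as Cbarp), which encodes a regulator of voltage-gated calcium channels, drew on sites 27 bases, or 9 codons, apart (mm10 chr10:80136690 and 80136663). PSI ran from 0.162 to 0.362 in KO TRAP, 0.258 to 0.403 in WT TRAP, 0.202 to 0.427 in KO input and 0.221 to 0.496 in WT input. All 4 ranges overlapped. The TRAP and input means were 0.288 ± 0.0765 (SD, n = 10) and 0.334 ± 0.0996 (SD, n = 8; 2-sided exact permutation p = 0.287, adjusted p = 0.738).

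Some ribosomal protein genes gave intermediate values that varied little. Rpl38, whose upstream site is printed above, gave a PSI from 0.176 to 0.263 in TRAP (mean 0.215 ± 0.0312, SD, n = 10) and from 0.18 to 0.294 in input (0.227 ± 0.038, SD, n = 8), with overlapping groups. The 95% interval of the TRAP minus input difference was -0.40 to 0.25 on the log2 odds scale. Rpl31 gave 0.0819 to 0.132 in TRAP and 0.0903 to 0.177 in input for sites 72 bases apart. Such genes have many near-identical pseudogene copies that can share reads. Rpl26 and Rps28 averaged 0.245 and 0.652 CPM in TRAP although their PSI was measured in 19 and 13 libraries, and their values are uncertain.

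Pfdn5, a subunit of the prefoldin chaperone, gave 0.113 to 0.17 in TRAP and 0.101 to 0.18 in input for sites 314 bases apart. Mfn2, which fuses mitochondrial outer membranes, varied more, from 0.00855 in KO TRAP 3 to 0.247 in KO TRAP 2. In input the Mfn2 mean was 0.0953 ± 0.062 in KO (SD, n = 5) and 0.19 ± 0.0425 in WT (SD, n = 3), with 2 KO values inside the WT range (2-sided exact permutation p = 0.107, adjusted p = 0.599). Both genes are marked as CLIP targets in the authors' deposited table.

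**Figure D3:**
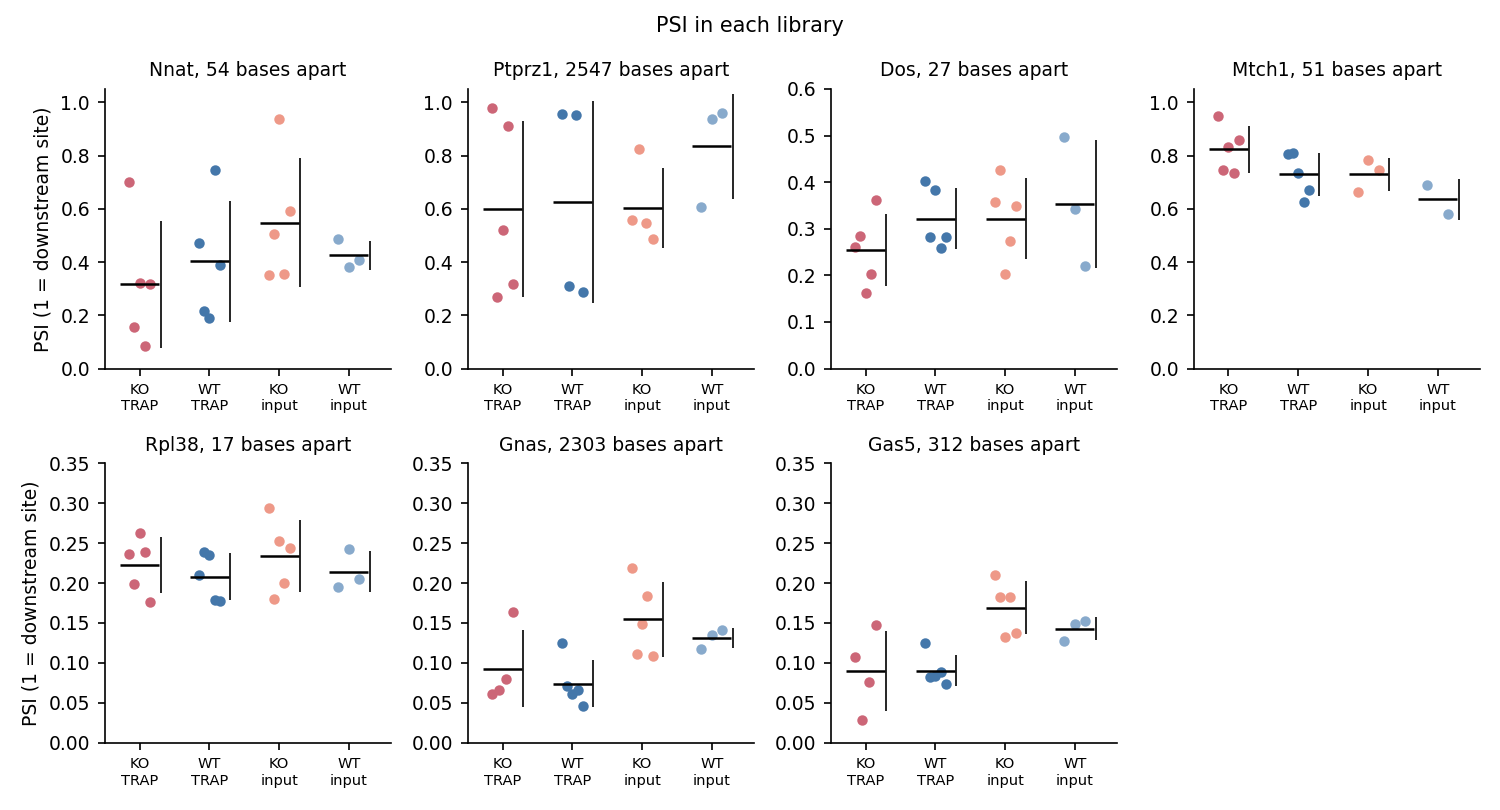
PSI (y axis, fraction; 1 is the downstream site) in each library for 7 events, by group on the x axis; points are libraries (WT input 2 and 3 averaged), horizontal lines are means and vertical lines are ± 1 SD. Nnat and Ptprz1 scatter widely within groups, and Gnas and Gas5 sit lower in most TRAP libraries than in input. The y axes end at different values.

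Other intermediate events were also described after their values were seen. In Klc1, a kinesin light chain, the sites lie 27 bases apart and PSI ran from 0.0563 to 0.325 in 13 libraries. In Mapre3, a microtubule end-binding protein, they lie 45 bases apart and PSI ran from 0.0982 to 0.364 in 11. Bex1, a brain-expressed X-linked gene, gave 0.179 to 0.331 for sites 42 bases apart. Mtch1, a mitochondrial outer membrane protein, favoured the downstream of sites 51 bases apart, at 0.777 ± 0.094 in TRAP (SD, n = 10) and 0.692 ± 0.0778 in input (SD, n = 5), with overlapping groups. In other such events the distance is not a multiple of 3. Becn1, the autophagy protein beclin, gave 0.0368 to 0.235 for sites 656 bases apart, and Ndufs6, a subunit of mitochondrial complex I, gave 0.0419 to 0.311 for sites 61 bases apart. Dnajc8, a DnaJ family protein, gave 0.112 to 0.254 for sites 629 bases apart.

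Intermediate events varied more between libraries on the PSI scale, where values near 0 or 1 have little room to spread. The events were also classed by the median of these same values, so the contrast is in part built in. Within groups, the SD of PSI had a median of 0.0526 over 96 group values from intermediate events and 0.0146 over 515 from the others. Of the 190 events with at least 10 libraries, 134 stayed below 0.5 in every library and 51 above it. The other 5 crossed 0.5, among them both longer Nnat pairs, Ptprz1 and Lsm2. Lsm2, an RNA-binding Sm-like protein, crossed in 1 library alone: PSI was 0.927 in KO TRAP 4 and between 0.0156 and 0.0541 in the other 11.

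No event passed the test between TRAP and input after correction. Of 252 events with at least 3 values on each side, 0 passed an adjusted p of 0.05 by limma on log2(PSI/(1-PSI)), beside 0.0762% of all splicing events tested. Without adjustment 19 (7.54%) had p below 0.05, close to the 8.77% among all splicing events. The differences were small: the median absolute difference in mean PSI was 0.00999, and the median log2 odds difference was -0.07 with 108 events above and 140 below 0. The median 95% interval, with no adjustment for the number of events, reached 0.90 on the log2 odds scale to either side, and no shift of that size or larger passed after adjustment.

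The next events were chosen for the smallest p-values. An event with no gene symbol on chromosome 11 (mm10 chr11:53430655 and 53430536) had a PSI from 0.947 to 0.988 in TRAP and from 0.963 to 0.993 in input. Gnao1, the G protein alpha subunit most abundant in brain, had 0.939 to 0.991 (median 0.982) in TRAP and 0.879 to 0.968 (median 0.954) in input. Both pairs of groups overlapped, with differences of -1.12 ± 0.31 and 1.32 ± 0.36 on the log2 odds scale (SE; limma adjusted p = 0.241 for each).

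Gas5, a noncoding host of small nucleolar RNAs, and Gnas, the imprinted gene of the stimulatory G protein alpha subunit, had a lower mean PSI in TRAP. For Gas5 sites 312 bases apart (mm10 chr1:161036852 and 161037164) PSI was 0.029 to 0.147 (median 0.0831, n = 9) in TRAP and 0.127 to 0.21 (median 0.151, n = 8) in input. For Gnas sites 2303 bases apart (mm10 chr2:174328131 and 174330434) it was 0.0465 to 0.164 (median 0.0663, n = 9) in TRAP and 0.109 to 0.219 (median 0.138, n = 8) in input. One side reached into the other in both genes, with 1 TRAP library of Gas5 and 2 of Gnas inside the input range. The differences were -1.03 ± 0.28 in Gas5 and -0.94 ± 0.26 in Gnas on the log2 odds scale (SE; limma adjusted p = 0.241 and 0.246).

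Within sequencing run 1 the differences were -1.17 in Gas5 and -1.03 in Gnas, and within run 2 they were -0.76 and -0.91. Both events were chosen by p over these same libraries, so the split gives no separate support. Run 2 input held 2 KO libraries and 1 WT library. A second Gas5 event with the same upstream site and a distance of 463 bases gave 0.139 to 0.222 in TRAP and 0.168 to 0.233 in input. Gas5 and Gnas RNA levels themselves did not pass the edgeR test between TRAP and input, at log2 fold changes of 0.60 and 0.06 (adjusted p = 0.211 and 0.877).

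Further events were among those with the smallest p. Rpl10a, the ribosomal protein that carries the tag in TRAP lines of this kind, had a PSI of 0.0076 to 0.0137 in TRAP and 0.00796 to 0.0258 in input, so that the downstream site was rare in both. Its TRAP median of 0.00949 lay below 0.01, the lower limit at which PSI was held in the fit. The size of its tested difference therefore depends on that limit. Sat1, a spermidine acetyltransferase, had 2 events whose downstream sites lie 1 base apart, and in that with the smaller p PSI was 0.0253 to 0.0585 in 5 TRAP libraries and 0.00918 to 0.027 in 3 of input. Synj2bp, a mitochondrial outer membrane protein, had 0.014 to 0.112 (median 0.0201) in TRAP and 0.0327 to 0.0886 (median 0.0362) in 5 of input, which overlapped. An unnamed event on the X chromosome had 0.163 to 0.238 in 4 TRAP libraries and 0.189, 0.368 and 0.952 in input. Its mean PSI differed by -0.29, TRAP less input, and its log2 odds by -3.64 ± 1.14 (SE), with 1 input library far above the other two. Adjusted p-values for these by limma lay between 0.288 and 0.436.

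Groups did not overlap in 3 of the 252 events, against 1.64% of all splicing events: a Sat1 event, an event with no symbol on chromosome 19 and Gria3. In Gria3, an AMPA receptor subunit, PSI was 0.0236, 0.0535 and 0.0252 in TRAP, all KO libraries, and 0.0896, 0.0932 and 0.0974 in input (2-sided exact permutation p = 0.1, the smallest that 3 against 3 can give; adjusted p = 0.599). Mean PSI differed by at least 0.1 in 16 events, of which 6 lie in a repeated region of chromosome 8 whose copies can share reads. In Capn7, another of the 16, KO TRAP 1 stood at 0.931 and the other 6 libraries between 0.0139 and 0.0684.

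**Figure D4:**
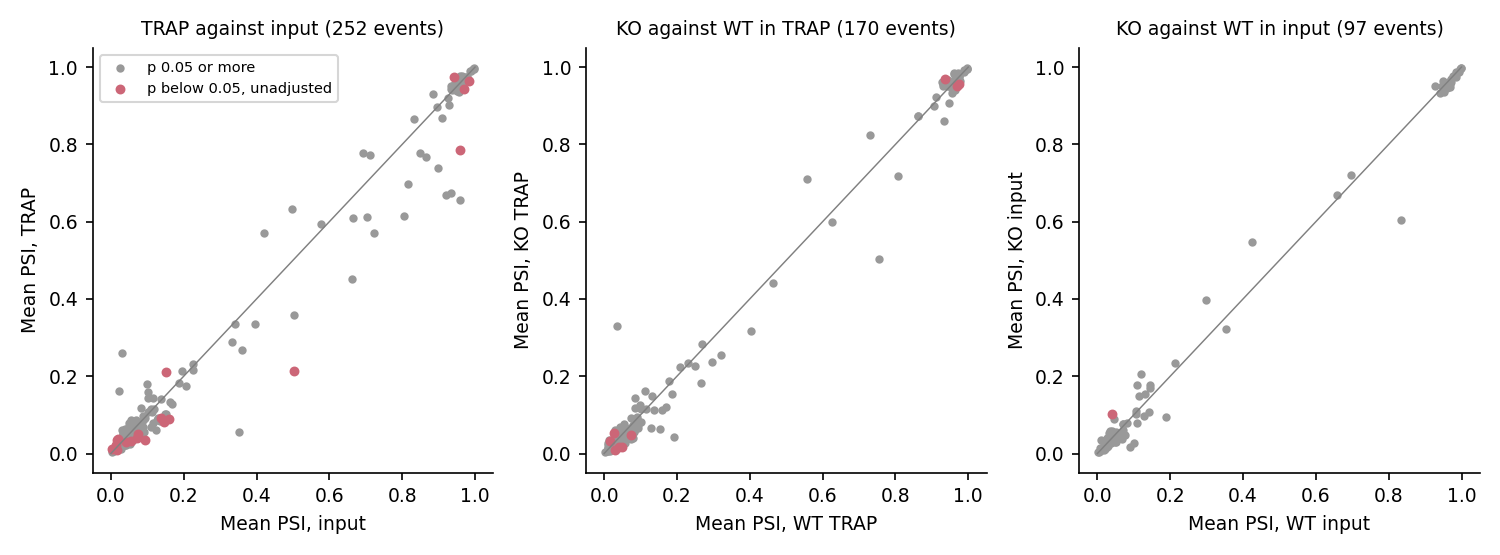
Mean PSI of each tested event in one group (y axis) against the other (x axis), both as fractions, for TRAP and input, KO and WT in TRAP, and KO and WT in input; red points have an unadjusted p below 0.05 and the line marks equality. Most points lie near the line at either end of the scale, and 0 of 252, 170 and 97 events pass the adjusted threshold.

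No event passed the test between KO and WT after correction, in TRAP or in input. In TRAP 0 of 170 events passed (0.0537% of all splicing events did) and 9 (5.29%) had an unadjusted p below 0.05, against 6.02% of all events. In input 0 of 97 passed (0.0% of all splicing events) and 1 (1.03%) had an unadjusted p below 0.05, against 3.21%. The median absolute difference in mean PSI was 0.0108 in TRAP and 0.00863 in input. The lowest false discovery rates in the authors' deposited table were 0.725 for these events in TRAP and 0.931 in input.

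The events with the smallest p in TRAP, chosen for that, all had PSI near 0 or 1. Tomm5, a subunit of the mitochondrial protein import channel with donor sites 4 bases apart, had a PSI of 0.957, 0.955, 0.94 and 0.951 in KO and 0.971, 0.963 and 0.972 in WT. All KO values lay below the WT values, a difference of -0.69 ± 0.20 on the log2 odds scale (SE; limma adjusted p = 0.589). Synj2bp had 2 events that share both donor sites, 351 bases apart, and differ in the next exon. For the first, PSI was 0.014, 0.0162, 0.0198, 0.0121 and 0.0198 in KO and 0.0258, 0.0752, 0.0163, 0.0424 and 0.0492 in WT, with 1 WT value inside the KO range. For the second, which is the one named above for TRAP against input, PSI was 0.014 to 0.0232 in KO and 0.0158 to 0.112 in WT, again with overlap. In input the second event had 0.0361, 0.0327 and 0.0362 in KO and 0.0886 and 0.0766 in WT, all KO values below the WT values, but 2 WT libraries were too few for the test.

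The Synj2bp differences in TRAP were -1.23 ± 0.40 and -1.31 ± 0.47 (SE; limma adjusted p = 0.589 for each). Gtf2a2, a subunit of the general transcription factor TFIIA, averaged 0.0316 ± 0.00636 in KO (SD, n = 4) and 0.017 ± 0.00689 in WT (SD, n = 5), with 1 KO value inside the WT range. The noncoding transcript 1700020I14Rik averaged 0.968 ± 0.0144 in KO and 0.935 ± 0.022 in WT (SD, n = 5 each), with overlapping groups. In input, KO and WT overlapped for Tomm5 (0.934 to 0.96 in KO, 0.944 and 0.949 in WT). They also overlapped for 1700020I14Rik (0.949 to 0.985 in KO, 0.92 and 0.991 in WT). Gtf2a2 averaged 0.0256 in both genotypes in input. The first Synj2bp event had 0.0259 to 0.052 in KO input and 0.0522 in WT input 2/3 alone. Groups did not overlap in 4 of the 170 events, among them Tomm5, Plekha1 and Ythdf2, against 3.87% of all splicing events. Plekha1, a phosphoinositide-binding protein, had 0.0367, 0.055 and 0.0511 in KO and 0.0743, 0.0827 and 0.065 in WT. Ythdf2, a reader of methylated adenosine, had 0.976, 0.984 and 0.984 in KO and 0.938, 0.976 and 0.972 in WT, so that the groups met at the third decimal.

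In input the smallest p belonged to Usp5, a deubiquitinating enzyme, at sites 334 bases apart: PSI was 0.077, 0.122, 0.0432 and 0.164 in KO and 0.0213, 0.0266 and 0.072 in WT, which overlapped. The difference was 1.57 ± 0.63 on the log2 odds scale (SE; limma adjusted p = 0.978). Another Usp5 exon, with the sites 69 bases apart that separate its known long and short isoforms, had a PSI of 0.91 to 0.987 in 10 libraries, the longer form. Cox4i1 (cytochrome c oxidase), Phb2 (prohibitin), Rpl26 and Rpl31 came next, with log2 odds differences of -0.93, -0.55, -0.65 and -0.45 and the same adjusted p. Groups did not overlap in 2 of the 97 events, Rptor and Apbb2, against 3.47% of all splicing events. Rptor, a subunit of the kinase complex mTORC1, had 0.206, 0.155 and 0.175 in KO and 0.14, 0.142 and 0.149 in WT.

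The genotype difference was also compared between TRAP and input. Of 160 events, 0 passed (limma; 0.0% of all splicing events) and 6 (3.75%) had an unadjusted p below 0.05, against 4.64%. Bcl11a, a zinc finger transcription factor, had PSI of 0.0495, 0.0203 and 0.0558 in KO TRAP, 0.166, 0.264, 0.0274 and 0.311 in WT TRAP, 0.285, 0.146, 0.199 and 0.193 in KO input and 0.0187, 0.141 and 0.198 in WT input. The KO values were low in TRAP with 1 WT value among them, and in input KO and WT overlapped. The genotype effect in TRAP minus that in input was -3.58 ± 1.43 on the log2 odds scale (SE; limma adjusted p = 0.942). Cox4i1, Kif21b (a kinesin), Ppa2 (a mitochondrial pyrophosphatase) and Psme1 followed, with 1.48, 1.15, 1.07 and -1.42 and the same adjusted p.

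The CELF6 CLIP mark in the authors' deposited table is given per gene, so it does not place binding at these splice sites. Events in marked genes, called marked events here, numbered 223 of 903 (24.7%), near the 26.5% among the other 8032 splicing events. In KO against WT in TRAP, 59 marked events were tested and 2 had an unadjusted p below 0.05, and 111 unmarked events were tested with 7. In input these counts were 1 of 34 and 0 of 63, and in TRAP against input 9 of 79 and 10 of 173. Over all splicing events the shares were 6.02%, 3.21% and 8.77% in the same order. The counts are small, and marked events were not tested against unmarked ones. The median absolute log2 odds difference between KO and WT was 0.31 for marked and 0.37 for unmarked events in TRAP, and 0.29 and 0.26 in input. Between TRAP and input it was 0.36 for marked and 0.32 for unmarked events.

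Host genes were also sorted into lists. Genes of RNA processing held 17 events, of which 2 had at least 10 libraries, and the lists were chosen with earlier results known. Srsf5, an SR protein that itself steers donor choice, drew on both sites 126 bases apart, with a PSI of 0.904, 0.368 and 0.856 in KO TRAP, 0.599, 0.677 and 0.395 in WT TRAP and 0.412 to 0.666 in 3 libraries of input, a wide and overlapping spread. Srsf7, another SR protein, stayed between 0.898 and 0.969 over 9 libraries, and Celf3 and Celf4 between 0.0394 and 0.221. Luc7l, a U1-associated factor, had 0.00864 to 0.0654 in 5 libraries.

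Synaptic and vesicle genes held 6 events. Cplx1, the fusion clamp complexin, had 0.934 to 0.977 in TRAP and 0.935 to 0.978 in input, and the scaffold gene Dlg4 0.0327 to 0.0915 in 6 libraries. Among 5 events of channels and receptors, Cacnb1, a calcium channel beta subunit, had 0.00549 to 0.0204 in TRAP and 0.0105 to 0.0769 in input (2-sided exact permutation p = 0.0492, adjusted p = 0.599), the only one of 36 such tests below 0.05. Add1, the membrane skeleton protein adducin, had 0.588, 0.824 and 0.923 in TRAP and 0.491 in 1 library of input, and the initiation factor gene Eif4a2 stayed between 0.00928 and 0.0863.

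Genes for the machinery were compared from the counts, by edgeR with sequencing run as a term. Of 19 genes of the U1 particle and its partners, 0 passed the edgeR test between TRAP and input at an adjusted p of 0.05, beside 4.72% of all genes tested. By edgeR 1 had an unadjusted p below 0.05, a count for which no share over all genes was taken. DESeq2 called 0 of them, beside 1326 of 24062 genes. Their median log2 fold change was 0.05, against 0.02 over all genes. Snrnp70 and Snrpa, 2 of the U1-specific proteins, had log2 fold changes of -0.52 ± 0.28 and -0.31 ± 0.33 (SE; edgeR adjusted p = 0.315 and 0.671). Snrpc, the other one, was measured at 0.297 to 6.08 CPM and its SE of 0.83 exceeded its log2 fold change of 0.09.

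Of 33 tested regulators of donor choice, 1 rose and 5 fell in TRAP, where 4.72% of all genes tested passed in either direction. The median log2 fold change of the 33 was -0.13, against 0.02 over all genes. Celf6 rose by 1.55 ± 0.39 on the log2 scale (SE; edgeR adjusted p = 0.02). Elavl3, a neuronal RNA-binding protein, fell by 2.04 (edgeR adjusted p = 7.49e-05). It stood at 22.2 to 220 CPM in TRAP and 399 to 532 in input, which did not overlap. Rbfox1, Celf4, Celf2 and Nova1, all neuronal splicing regulators, fell by 1.33, 1.13, 1.00 and 0.99 (edgeR adjusted p from 0.00155 to 0.0198). Celf6 did not pass without WT input 1 (1.36, adjusted p = 0.0945) or without WT input 2/3 (1.26, adjusted p = 0.0689), nor did Nova1 without WT input 2/3 (-0.91, adjusted p = 0.0556). Of 6 markers of other neurons, all had negative log2 fold changes, from -1.10 in Th to -0.04 in Slc6a3, and only Gad2 passed (-1.03, edgeR adjusted p = 0.013). Their summed level was 232 to 705 CPM in TRAP and 507 to 1487 in input. Of the oligodendrocyte and astrocyte markers, 3 of 5 and 2 of 5 also fell in TRAP and 0 rose. The part of cell makeup in these levels was not tested.

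Between KO and WT none of these factor genes passed, in TRAP or in input (edgeR, 0.0% of all genes in each). By edgeR 3 and 1 of 52 had an unadjusted p below 0.05, counts for which no share over all genes was taken. DESeq2 called 0 factor genes in either, beside 8 of 24062 genes in TRAP and 3 in input. Celf6 was different by -1.48 ± 0.48 in TRAP and -1.86 ± 0.56 in input on the log2 scale, KO less WT (SE; edgeR adjusted p = 0.933 and 1). The input value rested on WT input 5 and was -0.38 without that library.

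**Figure D5:**
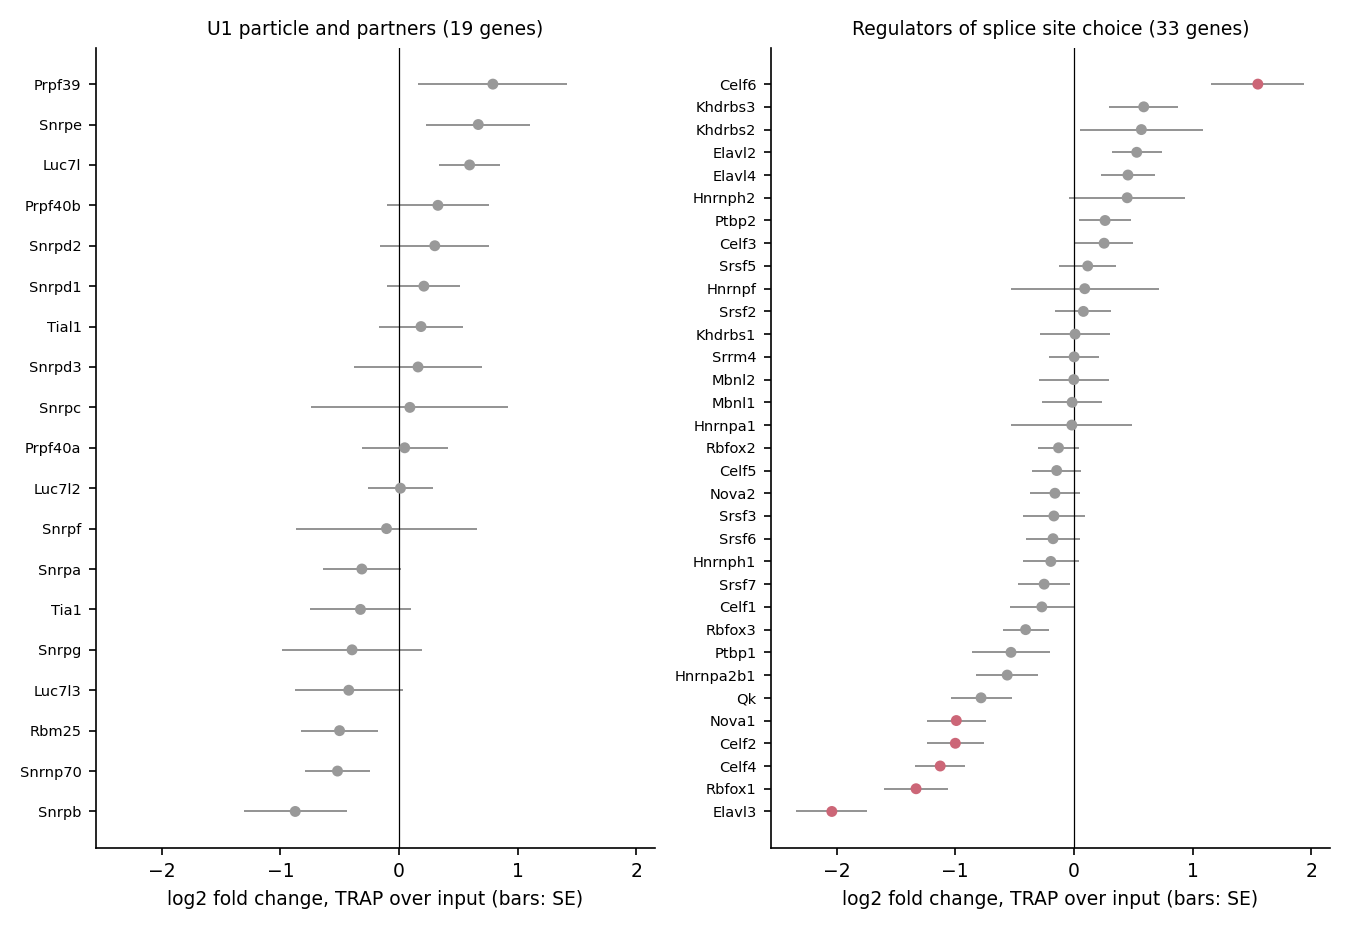
Log2 fold change of TRAP over input (x axis, with SE bars) for the genes of the U1 particle and partners (left) and regulators of splice site choice (right), one gene per row; red marks an edgeR adjusted p below 0.05. No gene on the left is red, and on the right Celf6 lies above 0 and 5 regulators below it.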

How the data were processed

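PSI values are fractions that the authors deposited, computed with MISO and filtered to credible intervals of 0.2 or narrower, per the series' design text. The false discovery rates (adjusted p-values) and CLIP marks are the authors' deposited values. Gene counts were deposited by the authors; the submitters' processing notes name Trimmomatic, STAR, Subread, featureCounts and mm10, with no version. Events and lists were chosen with earlier results of these data known.

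WT input 2 and 3 had a chi-square per gene of 1.34 between them (repeat runs 1.37 to 2.58, other pairs 24.7 to 90.3), and their counts were summed. For the limma fits they were averaged after conversion to log2(PSI/(1-PSI)), and for the values and means printed here PSI itself was averaged. PSI was held between 0.01 and 0.99, converted to log2(PSI/(1-PSI)) and fitted with limma 3.58.1 (R 4.3.3) over all event types, with at least 3 values on each side (2 in each of the 4 groups for the genotype by RNA kind term) and Benjamini-Hochberg adjustment at 0.05. TRAP against input had genotype as a term. Counts were tested with edgeR 4.0.16 (quasi-likelihood, filterByExpr, TMM, sequencing run as a term), with DESeq2 1.42.0 as an alternative. Scripts were tested on simulated data. Exact permutation tests (scipy 1.17.1) covered events not chosen by p.

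Events were named by smallest p (5 per comparison, 10 for TRAP against input), by values in every library with a median PSI nearest 0.5 (6 events), by gene list (at most 4 per list) and by CLIP mark with most libraries (at most 4, ties settled after values were seen). Events that did not overlap between groups, that differed by 0.1 or that had other intermediate values were added after values were seen. Splice site bases come from RefSeq promoter windows; other sites were not analysed here. Some results are not reported here.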

Additional observations from a re-analysis of the deposited data

Results flagged for a closer look

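Sets of 4 or 5 libraries of one group were checked for a library standing apart. They do not cover all events, and those flagged lie in events named here, many of them chosen by their values. The share flagged therefore cannot be set against the 1 in 20 that chance gives in unselected sets. In 9 of 115 sets (7.83%) a library's gap to its nearest neighbour was large for the group's range. In WT TRAP these were Synj2bp in replicate 2 (PSI 0.112, the others 0.0158 to 0.0418), Cox4i1 in replicate 3 (0.0806, the others 0.0315 to 0.0389), Eif4a2 in replicate 3 (0.0622, the others 0.0191 to 0.0221), Gnao1 in replicate 4 (0.939, the others 0.972 to 0.983), Gas5 in replicate 1 (0.125, the others 0.0739 to 0.0881) and Apbb2 in replicate 5 (0.0567, the others 0.0115 to 0.0224). In KO TRAP it was Mfn2 in replicate 2 (0.247, the others 0.00855 to 0.072). In KO input they were the chromosome 11 event with no symbol in replicate 2 (0.963, the others 0.984 to 0.99) and Cacnb1 in replicate 2 (0.0769, the others 0.0115 to 0.0222).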

How the results depend on the processing

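In the alternatives run, 0 alternative 5′ splice site events passed limma's adjusted threshold in KO against WT in TRAP, KO against WT in input, or TRAP against input, leave-one-out fits included (lowest 0, highest 0). The number with an unadjusted limma p below 0.05 depended on how values near 0 and 1 were held. With PSI held between 0.05 and 0.95 it went from 9 to 1 in KO against WT in TRAP. In TRAP against input it went from 19 to 10, and in KO against WT in input it stayed at 1. For the term comparing the genotype effect between TRAP and input, 1 event (in Arl16) passed with PSI held between 0.05 and 0.95, among 6 of all 1787 splicing events tested, and the cause was not tested. With the replicate block 0 events passed in any of the 4 PSI comparisons and 6 factor genes in TRAP against input. Pairing was checked on what was left of log2 CPM after group and sequencing run were fitted. These residuals of same-numbered TRAP and input libraries correlated between -0.186 and 0.0366 in KO (5 pairs) and between -0.164 and -0.0429 in WT (3 pairs). So few libraries per group cannot settle pairing, and the numbers were not taken to pair them. Factor gene calls in TRAP against input ran from 4 without WT input 2/3 to 7. Snrpc reversed to -0.092 with the replicate block, -0.00030 without KO TRAP 3, -0.039 without KO input 3, -0.061 without WT TRAP 5 and -0.00018 without WT input 5 on the log2 scale; the cause was not tested. Depth limits what can be seen, since 311 of the 903 events had a value in 1 library only.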

Other observations

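A repeated region of chromosome 8 between 20 and 21 Mb (mm10) held 12 alternative 5′ splice site events, in 2610005L07Rik, 6820431F20Rik, AC240744.1 and loci with no symbol. The same distances between sites recurred, with 167 bases in 4 events, 402 in 3 and 205 in 2, and reads may be shared among the copies, so these values are uncertain. For the 3 events 402 bases apart, TRAP values came from KO libraries alone, and KO TRAP 2 was the lowest in each at 0.432, 0.532 and 0.421, while input values lay between 0.843 and 0.977. By contrast, an event 8 bases apart in the region stayed between 0.949 and 0.991 in 18 libraries.

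In a few other events, picked out after their values were seen, 1 or 2 libraries stood apart. In D19Ertd386e WT TRAP 4 stood at 0.0707 and the other 6 libraries between 0.935 and 0.974. In an event with no symbol on chromosome 9 WT input 5 stood at 0.951 and the other 7 libraries between 0.0181 and 0.094. In Psmb5, a catalytic proteasome subunit, KO TRAP 1 and KO TRAP 4 stood at 0.419 and 0.463 and the other libraries between 0.835 and 0.958.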
